A study of Mus musculus with 21 samples.

Results

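Fractalkine (Cx3cl1) and its only known chemokine receptor, Cx3cr1, were followed in the mouse brain after traumatic brain injury (TBI), with and without complement inhibition. The members were the rows of the deposited panel values paired with the symbol Cx3cl1 or Cx3cr1, which gave 2 of 757 genes, 1 probe each, and both passed the filter on low values. RNA came from the right hemisphere of male C57BL6J mice and was read with the NanoString nCounter Mouse Neuroinflammation panel, in which each target transcript is captured and counted by a color-coded probe without amplification. The 21 samples formed 7 groups of 3, and each sample was a different mouse.

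Injured mice received an open-head controlled cortical impact, a piston strike to the exposed cortex, and were killed on day 3, 7, or 28 post injury (pi). They were given PBS as vehicle or CR2-Crry at 16 mg/kg intravenously shortly after the impact. CR2-Crry fuses a targeting part of complement receptor 2, which binds deposited C3 fragments, to Crry, a rodent inhibitor of C3 activation. The day 28 groups had further intraperitoneal doses, so day 28 differs from days 3 and 7 in dosing and age as well as in time. Sham mice were anesthetized and had the scalp opened, are labeled as vehicle (PBS) mice, and were 12, 13, and 16 weeks old for replicates 1, 2, and 3. Injured mice were 12 weeks old in the day 3 groups, 13 in the day 7 groups, and 16 in the day 28 groups, so that age and day cannot be told apart among them. A craniotomy without impact and sham mice given CR2-Crry were not among the samples analysed here.

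Fractalkine is made in the brain mainly by neurons as a membrane protein with its chemokine domain on a mucin stalk, and proteases can release that domain as a soluble ligand. Its receptor is a Gi-coupled receptor carried by microglia, and outside the brain by monocytes, some macrophages, NK cells, and some T cells. The pair is known as a neuron-to-microglia signal that restrains microglial activation and guides microglial movement and contact with synapses. No protein sequence was used here. The 250 bases before each annotated transcription start are shown to place the 2 genes in the genome and to compare their proximal upstream sequence, in lower case from 5′ to 3′ on the strand of the gene, from RefSeq on build GRCm38.p6. Capitals mark matches to the TATA box hexamer TATAAA and to GAGGAA, the core of the site bound by the myeloid factor PU.1, searched on both strands (TTTATA and TTCCTC).
Cx3cl1, chr8:94771930-94772179, plus strand: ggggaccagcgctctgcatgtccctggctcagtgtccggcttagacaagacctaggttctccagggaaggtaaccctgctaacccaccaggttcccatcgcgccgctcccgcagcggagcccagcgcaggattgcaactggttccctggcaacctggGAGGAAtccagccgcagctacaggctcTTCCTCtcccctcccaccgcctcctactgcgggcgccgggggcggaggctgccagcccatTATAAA
Cx3cr1, chr9:120068297-120068546, minus strand: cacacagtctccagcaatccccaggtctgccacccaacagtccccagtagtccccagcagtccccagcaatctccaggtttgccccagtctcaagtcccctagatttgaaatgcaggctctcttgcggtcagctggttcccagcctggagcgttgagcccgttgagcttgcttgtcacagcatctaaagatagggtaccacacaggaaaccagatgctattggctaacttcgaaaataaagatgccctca

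Both windows lie outside the transcript as annotated. The Cx3cl1 window held TATAAA as its last 6 bases, directly before the annotated start, and GAGGAA once on each strand, and its GC content was 64.8%. The Cx3cr1 window held none of these letters and had a GC content of 53.6%. Among 32851 windows of the same length in the RefSeq table, 12.4% held TATAAA and 23.3% held GAGGAA on either strand, so such matches are common, and a match is not a measured binding site.

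Cx3cl1 was lower and Cx3cr1 was higher than sham in every injured group, on every day and with either treatment. Values below are normalized counts, scaled by the authors to housekeeping genes, with SD and n = 3 for group means, and a log2 change carries its standard error. The probe of one gene cannot be set against that of the other, so only changes are compared between the 2 genes. Values of a sample were whole multiples of a step, and if a step is 1 counted molecule, which was not tested, 1099 to 2837 molecules per sample stood behind Cx3cl1 and 828 to 3325 behind Cx3cr1, with a counting error between 1.73% and 3.48%. The coefficient of variation between the 3 mice of a group ran from 1.43% to 6.75% for Cx3cl1 and from 1.95% to 16.31% for Cx3cr1. Totals of the normalized counts per sample ran from 787510 to 804298 in sham and from 828492 to 1029824 in injured mice. Sham samples also held the smallest steps, at most 0.87408, against at least 0.95913 in injured mice.

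Cx3cl1 in sham brains measured 2230.4, 2096.92, and 2218.37 normalized counts in replicates 1, 2, and 3, a mean of 2181.9 ± 73.8. On day 3 pi the PBS mice measured 1351.77, 1207.83, and 1368.84 (1309.5 ± 88.4). On day 7 pi they measured 1351.76, 1301.2, and 1443.1 (1365.4 ± 71.9). All 6 lay far below the lowest sham sample, and the 2 days overlapped. On day 28 pi the PBS mice measured 1562.17, 1528.5, and 1608.46 (1566.4 ± 40.1), still below all sham samples and above every PBS sample of days 3 and 7.

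The fall of the ligand in PBS mice was 40.1% on day 3, 37.5% on day 7, and 28.2% on day 28 relative to sham. On day 3 the change was −0.74 ± 0.05 log2 (95% interval −0.85 to −0.63, limma adjusted p = 5.47e-10), where 13.2% of the 740 tested genes were called lower and 15.1% had all 3 PBS samples below all 3 sham samples. On day 7 it was −0.68 ± 0.05 (−0.79 to −0.56, limma adjusted p = 1.44e-09), where 9.46% of genes were called lower and 12.6% lay below sham without overlap. On day 28 it was −0.48 ± 0.05 (−0.59 to −0.36, limma adjusted p = 5.94e-07), where 8.11% were called lower and 11.9% lay below without overlap. Ranked from the lowest log2 change of all 740 genes, Cx3cl1 stood 12th on day 3, 11th on day 7, and 11th on day 28. Since tissue was taken as a whole hemisphere, fewer cells of a type and less RNA per cell cannot be told apart in these samples.

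Cx3cr1 in sham brains measured 720.93, 723.74, and 797.78 normalized counts, a mean of 747.5 ± 43.6, with the highest value in the oldest mouse. On day 3 pi the PBS mice measured 2183, 2115.6, and 2193.49 (2164.0 ± 42.3). On day 7 pi they measured 3438.86, 2709.63, and 2552.23 (2900.2 ± 473). Replicate 1 of day 7 held the highest Cx3cr1 value of all 21 samples, and all 3 mice of that day lay above all 3 of day 3. On day 28 pi the PBS mice measured 1692.01, 1822.44, and 1584.48 (1699.6 ± 119), below every sample of days 3 and 7 and above every sham sample.

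The receptor rose 2.90-fold on day 3, 3.85-fold on day 7, and 2.27-fold on day 28 in PBS mice. The day 3 change was 1.54 ± 0.10 log2 (95% interval 1.33 to 1.74, limma adjusted p = 8.34e-11), where 51.6% of tested genes were called higher and 53.8% had all PBS samples above all sham samples. The day 7 change was 1.95 ± 0.10 (1.74 to 2.15, limma adjusted p = 2.05e-12), with 57.3% of genes called higher and 59.6% above sham without overlap. The day 28 change was 1.18 ± 0.10 (0.98 to 1.39, limma adjusted p = 1.10e-08), with 44.5% called higher and 50% above without overlap. A call in this direction was therefore shared with about as many panel genes as not, and Cx3cr1 ranked 110th, 93rd, and 72nd from the highest change on days 3, 7, and 28.

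The direction of a typical panel gene depended on the scaling, and that of the 2 members did not. Centring each sample on its median log2 value moved all changes against sham by −0.60, −0.73, and −0.34 log2 on days 3, 7, and 28 in PBS mice. The share of calls that were higher then went from 79.6% to 33.6% on day 3, from 85.8% to 32.3% on day 7, and from 84.6% to 35.8% on day 28. Of the 740 tested genes, 196, 192, and 157 were then called higher and 387, 403, and 281 lower on those days. The changes of Cx3cl1 were then −1.34, −1.41, and −0.82 and those of Cx3cr1 0.93, 1.22, and 0.84. Cx3cl1 stayed called lower and Cx3cr1 called higher against sham on all 3 days under that scaling and under every other alternative tried.

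**Figure D1:**
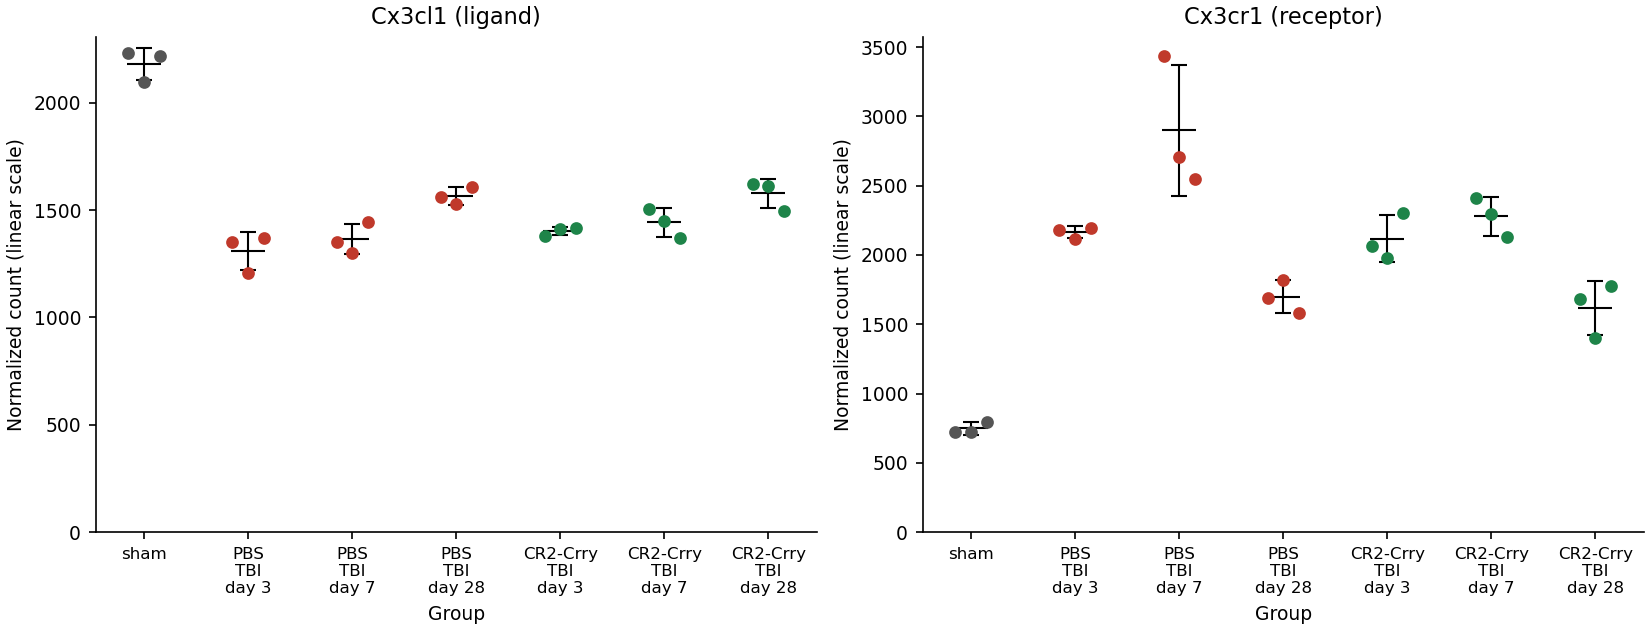
Normalized counts (linear axis) of Cx3cl1 and Cx3cr1 in each of the 21 samples by group, with points for mice and bars for the mean ± SD of 3. All 18 injured samples lie between 1207.83 and 1624.01 for Cx3cl1, below the lowest sham sample of 2096.92, and between 1400.72 and 3438.86 for Cx3cr1, above the highest sham sample of 797.78.

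With CR2-Crry the ligand was again below sham at each time. Cx3cl1 measured 1378.98, 1412.24, and 1414.97 normalized counts on day 3 pi (1402.1 ± 20.04). It measured 1507.19, 1451.66, and 1370.57 on day 7 (1443.1 ± 68.7). It measured 1624.01, 1611.54, and 1498.08 on day 28 (1577.9 ± 69.4). The 9 mice thus lay in the same band as the PBS mice and none reached a sham level. Relative to sham, Cx3cl1 was 35.7%, 33.9%, and 27.7% lower on days 3, 7, and 28 (limma adjusted p = 4.15e-09, 1.27e-08, and 8.35e-07), where 11.9%, 10.3%, and 10.3% of tested genes were called lower and 13%, 11.8%, and 12% lay below sham without overlap.

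Cx3cr1 in CR2-Crry mice measured 2065.33, 1980.12, and 2305.49 normalized counts on day 3 pi (2117.0 ± 169). It measured 2408.1, 2298.99, and 2131.76 on day 7 (2279.6 ± 139). It measured 1681.68, 1400.72, and 1773.15 on day 28 (1618.5 ± 194). Days 3 and 7 overlapped, and day 28 lay below both. The receptor was 2.83-fold, 3.05-fold, and 2.16-fold higher than sham on days 3, 7, and 28 (limma adjusted p = 1.12e-10, 5.22e-11, and 2.68e-08), where 53%, 48%, and 44.3% of genes were called higher and 54.7%, 52%, and 47.6% lay above sham without overlap. The PBS and CR2-Crry comparisons share the same 3 sham mice.

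**Figure D2:**
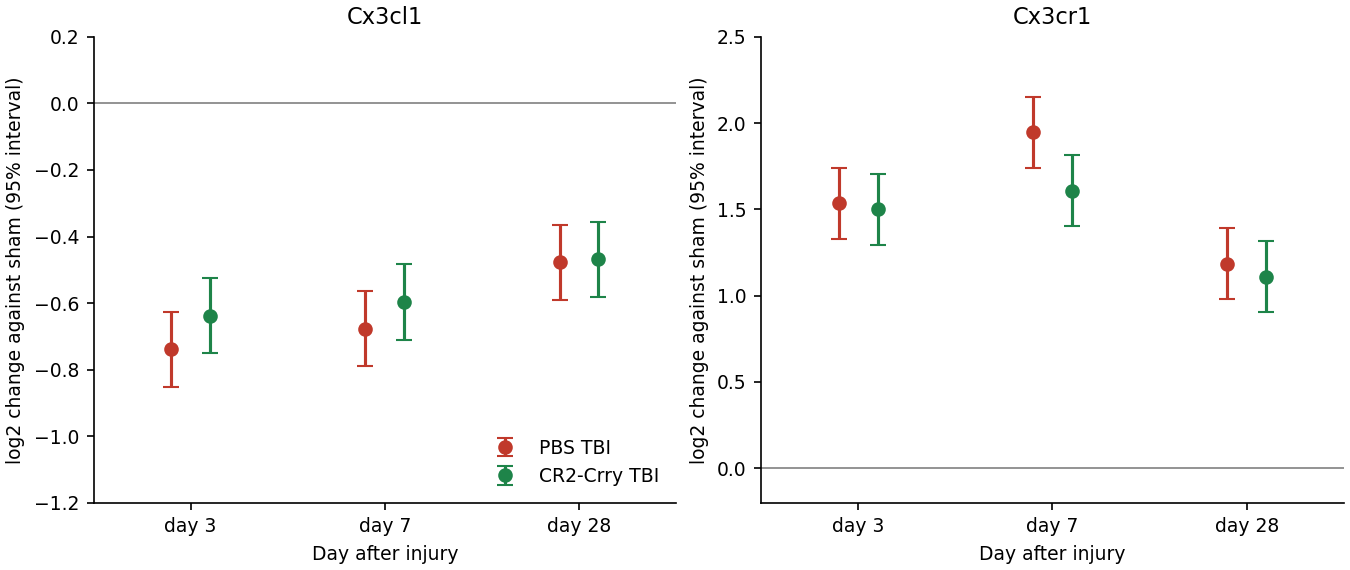
Log2 change of Cx3cl1 and Cx3cr1 against the 3 sham samples on days 3, 7, and 28 pi, for PBS and CR2-Crry mice, with 95% intervals of the limma fit. Cx3cl1 moves from −0.74 on day 3 to −0.48 on day 28 in PBS mice, and Cx3cr1 is highest on day 7 of PBS mice, at 1.95 against 1.61 with CR2-Crry.

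The direct comparison of CR2-Crry with PBS on the same day asked whether complement inhibition moved the pair. On day 7 pi Cx3cr1 was 1.26-fold lower with CR2-Crry, a change of −0.34 ± 0.10 log2 (95% interval −0.54 to −0.13, limma adjusted p = 0.0445), and the highest CR2-Crry mouse, at 2408.1 normalized counts, lay below the lowest PBS mouse, at 2552.23. On that day 7.16% of tested genes were called lower and 29.5% lay below without overlap, and the median change over all tested genes was −0.11. This call was close to its threshold and kept in 6 of 17 alternatives. Without PBS replicate 1, the highest sample, the change was −0.21 (limma adjusted p = 0.221), and with samples centred on their medians it was −0.17 (limma adjusted p = 0.155).

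Centring also turned the day 7 treatment calls over the panel, from 3.64% higher among all calls to 72.4%. On the same day 3 of 9 tested microglia markers (Fcrls, Olfml3, and Tgfbr1) and 1 of 3 monocyte and macrophage markers (Msr1, a scavenger receptor) were called lower with CR2-Crry, and P2ry12, a microglial purine receptor, changed by 0.00. Over all tested genes 7.16% were called lower, and 29.5% lay below PBS without overlap. After median centring Msr1 (−0.72) was still called and the 3 microglia markers were not (−0.31, −0.22, and −0.10). Under that scaling 24 of the 740 tested genes were called lower with CR2-Crry and 63 higher. The summed level of the 9 tested microglia markers was 10556.5 to 11025.8 normalized counts with CR2-Crry and 12050.3 to 14357.4 with PBS, and PBS replicate 1 held the 14357.4. The summed level of the 3 monocyte and macrophage markers was 303.1 to 388.6 with CR2-Crry and 535.2 to 611.4 with PBS. The part of these cells in the lower Cx3cr1 was not tested.

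The other treatment comparisons of the pair did not pass the test in the values as scaled by the authors. On days 3 and 28 limma called 0% of the 740 genes in either direction, with 27 and 15 genes at an unadjusted p under 0.05, and the unequal-variance test also called 0, as it did on day 7, where limma called 55. On day 3 pi Cx3cl1 was above PBS in all 3 CR2-Crry mice (1378.98 at the lowest against 1368.84 at the highest), a difference of 0.10 ± 0.05 log2 (95% interval −0.01 to 0.21, limma adjusted p = 0.999), where 7.3% of genes lay above without overlap. The Cx3cl1 groups overlapped on day 7, with a difference of 0.08 (−0.03 to 0.19, limma adjusted p = 0.341) that became 0.25 after median centring and passed the threshold (limma adjusted p = 0.0372), and on day 28, with 0.01 (−0.10 to 0.12, limma adjusted p = 0.999). The Cx3cr1 groups overlapped on day 3, with a difference of −0.03 (−0.24 to 0.17, limma adjusted p = 0.999), and on day 28, with −0.08 (−0.28 to 0.13, limma adjusted p = 0.999). A p that misses the threshold does not show that the treatments act alike.

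Whether the treatment effect changed with time was tested as a difference of differences. For Cx3cr1 the effect on day 7 minus that on day 3 was −0.30 ± 0.14 log2 (95% interval −0.59 to −0.01, limma adjusted p = 0.281). The effect on day 28 minus that on day 7 was 0.26 ± 0.14 (−0.03 to 0.55, limma adjusted p = 0.307). The lower receptor level on day 7 was therefore not shown to differ from the effect on the other days. For Cx3cl1 these differences were −0.02 ± 0.08 (limma adjusted p = 0.893) and −0.07 ± 0.08 (limma adjusted p = 0.649).

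Over time in PBS mice, the ligand partly returned toward sham while the receptor passed through a day 7 maximum. Cx3cl1 was 0.06 ± 0.05 log2 higher on day 7 than on day 3 with overlapping groups (limma adjusted p = 0.411), and 0.20 ± 0.05 higher on day 28 than on day 7 with no overlap (limma adjusted p = 0.00519), which was 0.59 after median centring and was not called by the unequal-variance test (adjusted p = 0.0832). Between days 7 and 28, 6.08% of genes were called higher and 10.3% lay above without overlap. Cx3cr1 rose by 0.41 ± 0.10 from day 3 to day 7 (limma adjusted p = 0.00522), where 18.5% of genes were called higher and 32.6% lay above without overlap. From day 7 to day 28 it changed by −0.76 ± 0.10 (limma adjusted p = 4.45e-06), where 39.1% of genes were called lower and 46.2% lay below without overlap, and by −0.37 after median centring. The unequal-variance test called neither Cx3cr1 difference (adjusted p = 0.239 and 0.0651). Different mice were used on each day, so these are differences between groups.

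In CR2-Crry mice the receptor had no called rise between days 3 and 7, with a change of 0.11 ± 0.10 log2 and overlapping groups (limma adjusted p = 0.521). From day 7 to day 28 it fell by 0.50 on the log2 scale (limma adjusted p = 0.001), where 22.3% of genes were called lower and 30.5% lay below without overlap, and it was −0.27 after median centring and not called by the unequal-variance test (adjusted p = 0.169). The ligand changed by 0.04 ± 0.05 from day 3 to day 7 (limma adjusted p = 0.675) and by 0.13 ± 0.05 from day 7 to day 28 (95% interval 0.02 to 0.24, limma adjusted p = 0.0929), with overlapping groups in both. The latter passed after median centring (0.36, limma adjusted p = 0.000739) and with equal totals (0.27, limma adjusted p = 0.00273).

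Ordered by mean level, Cx3cl1 ran from sham through CR2-Crry day 28, PBS day 28, CR2-Crry day 7, CR2-Crry day 3, and PBS day 7 to PBS day 3. Its only neighbors without overlap were sham with CR2-Crry day 28, and PBS day 28 with CR2-Crry day 7, and the other neighbors overlapped. Cx3cr1 ran from PBS day 7 through CR2-Crry day 7, PBS day 3, CR2-Crry day 3, PBS day 28, and CR2-Crry day 28 to sham. Its neighbors overlapped among CR2-Crry day 7 and the 2 day 3 groups, and between the 2 day 28 groups, and did not overlap elsewhere.

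The receptor level set against the ligand level of the same sample does not depend on how that sample was scaled. Log2 of Cx3cr1 minus log2 of Cx3cl1 lay between −1.63 and −1.48 in sham. In PBS mice it lay between 0.68 and 0.81 on day 3, 0.82 and 1.35 on day 7, and −0.02 and 0.25 on day 28. In CR2-Crry mice it lay between 0.49 and 0.70, 0.64 and 0.68, and −0.20 and 0.24 on the same days. Every injured sample lay above every sham sample, and on day 7 the 3 CR2-Crry samples lay below the 3 PBS samples. Relative to the sham mean, the receptor-to-ligand ratio was 4.83-fold, 6.16-fold, and 3.17-fold higher on days 3, 7, and 28 with PBS and 4.40-fold, 4.61-fold, and 2.98-fold higher with CR2-Crry. The absolute value of the ratio also holds the efficiency of the 2 probes and is not a ratio of transcripts.

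**Figure D3:**
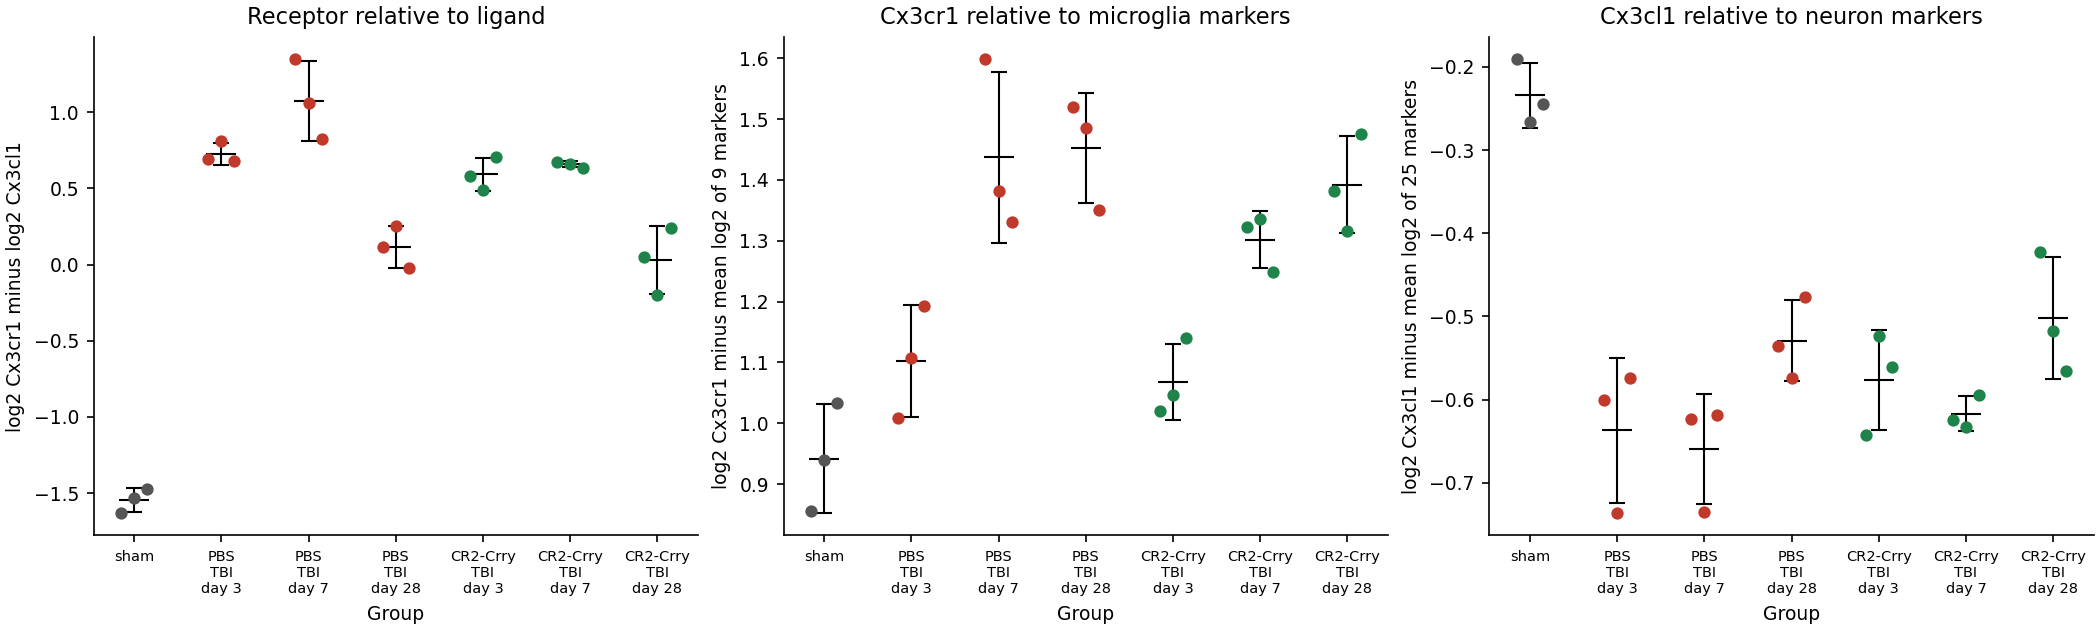
Within-sample log2 differences by group, a point for each of the 21 mice: Cx3cr1 minus Cx3cl1, Cx3cr1 minus the mean of the 9 microglia markers, and Cx3cl1 minus the mean of the 25 neuron and synapse markers, with bars for the mean ± SD of 3 and a y axis of its own for each. The receptor-to-ligand difference is at most −1.48 in sham and at least −0.20 in every injured sample.

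Since Cx3cr1 in the brain marks microglia, its change was read beside 9 tested microglia genes. In PBS mice 9 of 9 rose on day 3 with a median of 1.45 log2, 8 of 9 on day 7 with a median of 1.22, and 8 of 9 on day 28 with a median of 0.68, beside medians over all tested genes of 0.30, 0.36, and 0.21. Over all tested genes 51.6%, 57.3%, and 44.5% were called higher on those days. Fcrls, an Fc receptor-like scavenger molecule, changed by 2.46, 2.69, and 1.19 log2 on days 3, 7, and 28. Olfml3, a secreted microglial protein, changed by 1.88, 1.96, and 0.72. Gpr34, a lysophosphatidylserine receptor, changed by 1.83, 1.99, and 1.06, and Csf1r, the receptor that microglia need to survive, by 1.47, 1.81, and 0.86. The summed level of the 9 markers was 3992.8 to 4320.1 normalized counts in sham, 10887.9 to 12082.6 on day 3, 12050.3 to 14357.4 on day 7, and 6430.3 to 7380.4 on day 28. After median centring 6, 8, and 6 of the 9 were called higher on days 3, 7, and 28 and 1 was called lower on day 7. Of the 740 tested genes, 196, 192, and 157 were then called higher on those days, and 403 lower on day 7.

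Relative to the mean of these microglia markers in the same sample, Cx3cr1 overlapped sham on day 3 and lay above it later. The log2 difference was 0.86 to 1.03 in sham. In PBS mice it was 1.01 to 1.19 on day 3, 1.33 to 1.60 on day 7, and 1.35 to 1.52 on day 28. In CR2-Crry mice it was 1.02 to 1.14, 1.25 to 1.34, and 1.32 to 1.48. On days 7 and 28 all injured samples were above all sham samples, and the group means were 1.41-fold and 1.42-fold above sham with PBS. The microglia list was chosen by hand, and another choice of markers would give other values.

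Other cells can carry Cx3cr1. All 3 tested monocyte and macrophage markers rose on each day in PBS mice, with medians of 2.24, 2.35, and 1.08 log2. Over all tested genes 51.6%, 57.3%, and 44.5% were called higher on those days, and 13.2% lower on day 3. The summed level of the 3 markers was 86.5 to 203.4 normalized counts in sham and 685.5 to 863.5 on day 3. It was 535.2 to 611.4 on day 7 and 231.2 to 298.8 on day 28. The sham sums were low, where the filter was 20 per probe. On day 28 Cd14, 1 of the 3, overlapped sham and was not called after median centring (0.74, limma adjusted p = 0.053). Of 8 tested T and NK cell markers, 1 rose on each day (Klrd1 on days 3 and 7, Cd3e on day 28). Another, the T cell receptor chain Cd3g, fell on day 3 (−1.03). Their summed level was 149.9 to 155.7 in sham, 134.0 to 153.3 on day 3 of PBS mice, 177.9 to 231.1 on day 7, and 170.7 to 232.3 on day 28, and after median centring 4 of the 8 were called lower on day 3 and 2 on day 7. All 6 tested markers of activated microglia and macrophages rose on each day, with medians of 0.98, 2.65, and 2.04, among them Trem2, a lipid-sensing receptor, at 2.51, 3.34, and 2.18, and Itgax, an integrin subunit, at 0.98, 2.37, and 2.58. After median centring 3 of these 6 were called higher on day 3, where Apoe, a lipid carrier, stood at −0.07, and all 6 were on days 7 and 28. Of the 740 tested genes, 196, 192, and 157 were called higher after centring on days 3, 7, and 28. On days 3 and 7, 387 and 403 of them were called lower. The part of each cell type in the Cx3cr1 level was not tested.

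The fall of Cx3cl1 was read beside 25 tested neuron and synapse genes. In PBS mice 16 of 25 fell on day 3 with a list median of −0.26 log2, 14 fell and 2 rose on day 7 (−0.25), and 12 fell on day 28 (−0.17). Over all tested genes 13.2%, 9.46%, and 8.11% were called lower on those days, with medians of 0.30, 0.36, and 0.21. On day 7, 57.3% of them were called higher. Homer1, a postsynaptic scaffold protein, changed by −0.91, −0.96, and −0.79, more than Cx3cl1. Grin2a, an NMDA receptor subunit, changed by −0.87, −0.67, and −0.31, Shank3, another scaffold, by −0.78, −0.60, and −0.49, and Nrgn, a calmodulin-binding postsynaptic protein, by −0.58, −0.47, and −0.43. Their summed level was 105440.4 to 107246.1 normalized counts in sham, 83222.8 to 87481.4 on day 3, 85354.1 to 90998.9 on day 7, and 92659.0 to 93455.8 on day 28. After median centring 25, 25, and 22 of the 25 were called lower, the 2 that had risen on day 7 included. Under that scaling 387, 403, and 281 of the 740 tested genes were called lower on days 3, 7, and 28.

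Relative to the mean of the neuron and synapse markers in the same sample, Cx3cl1 was lower than sham in every injured sample. The log2 difference was −0.27 to −0.19 in sham. In PBS mice it was −0.74 to −0.57 on day 3, −0.74 to −0.62 on day 7, and −0.57 to −0.48 on day 28. In CR2-Crry mice it was −0.64 to −0.52, −0.63 to −0.59, and −0.57 to −0.42. Endothelial cells can also make fractalkine, and of 6 tested endothelial and barrier genes 4 rose and 1 fell on day 3 in PBS mice, 2 rose on day 7, and 1 rose on day 28, beside 51.6%, 57.3%, and 44.5% of all tested genes called higher, while after median centring 1 rose and 2 fell on day 3, 4 fell on day 7, and 2 fell on day 28. Among the 740 tested genes, centring gave 387, 403, and 281 called lower and 196, 192, and 157 called higher on days 3, 7, and 28. The part of neurons or of endothelium in the Cx3cl1 level was not tested.

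**Figure D4:**
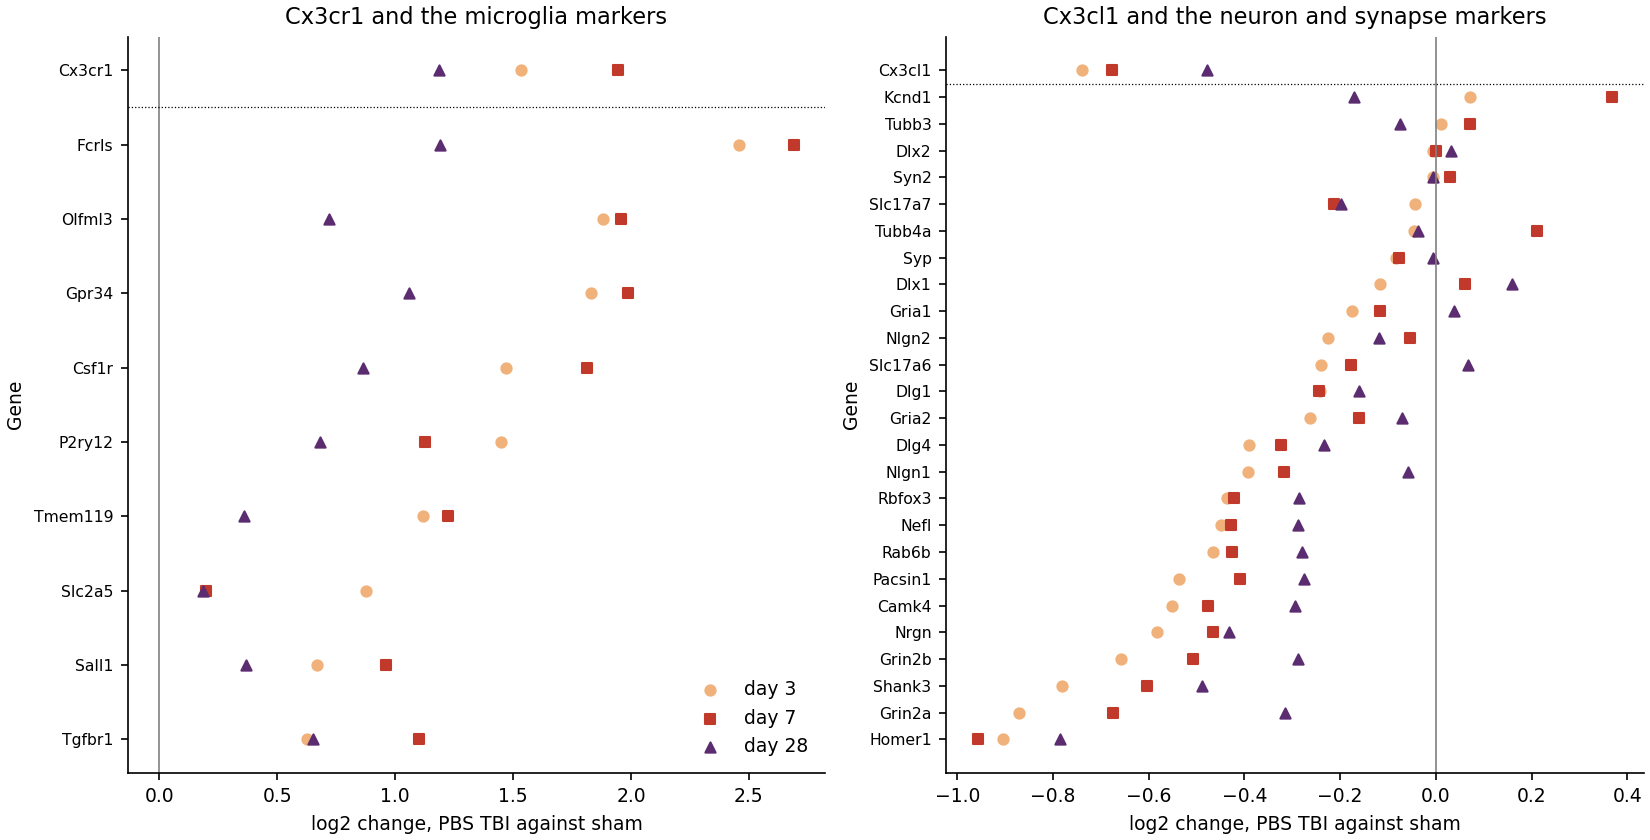
Log2 change against sham in PBS mice on days 3, 7, and 28 pi (symbols) for Cx3cr1 above the 9 microglia markers and for Cx3cl1 above the 25 neuron and synapse markers, a row for each gene, with different x axes. On day 7 Cx3cr1 at 1.95 lies above the microglia median of 1.22, and Cx3cl1 at −0.68 lies below the neuron median of −0.25.

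Of the proteases that release or process fractalkine, Ctss (cathepsin S, a lysosomal cysteine protease that microglia secrete) was the 1 of 4 listed genes tested. It rose by 2.06 log2 on day 3, 2.78 on day 7, and 1.83 on day 28 in PBS mice, and with CR2-Crry on day 7 it changed by −0.32 relative to PBS and was not called. Adam10, Adam17, and Mmp2 were not analysed here by name.

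Below the receptor, 17 of 30 listed genes of Gi-coupled chemokine receptor signaling were tested. On day 3, 9 rose and 2 fell with a median of 0.30 log2, on day 7 11 rose and 1 fell (0.25), and on day 28 8 rose and 1 fell (0.16), beside 51.6%, 57.3%, and 44.5% of all tested genes called higher and medians of 0.30, 0.36, and 0.21 over them. The members that rose most are expressed mainly in immune cells. Ptpn6, a phosphatase that dampens immune receptor signaling, changed by 2.30, 2.76, and 1.50, Vav1, an exchange factor for Rac, by 1.90, 2.20, and 1.27, Pik3cg, the catalytic PI3-kinase subunit driven by G protein-coupled receptors, by 1.48, 2.03, and 1.37, and Inpp5d, a phosphatase that opposes PI3-kinase, by 1.43, 1.74, and 0.80. After centring each sample on its median the list median turned negative, at −0.31, −0.48, and −0.19. With CR2-Crry on day 7, Plcg2, a phospholipase of microglia and B cells, was the 1 gene of the 17 called lower than with PBS, at −0.45. Over all tested genes 7.16% were called lower in that comparison, so 1 of 17 is near the panel share.

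Among 8 tested genes listed by hand as other neuron-to-microglia signals, 6 rose on day 3, 7 on day 7, and 6 on day 28 in PBS mice, with medians of 1.11, 1.43, and 0.85 log2. Over all tested genes 51.6%, 57.3%, and 44.5% were called higher on those days. Not every tested member of this list is named here. Of those named, Tgfbr1 and Axl also stand on the lists of microglia and activated microglia markers. Which cells made the transcripts of this list was not tested. The ligands Csf1, a microglial growth factor, changed by 1.30, 1.69, and 0.94, Tgfb1, which keeps microglia in their resting state, by 1.68, 2.06, and 1.02, and Pros1, which bridges dying cells to phagocytes, by 1.43, 1.44, and 0.83. The receptors Tgfbr1 and Axl, the latter a receptor for Pros1-like bridging proteins, changed by 0.63, 1.10, and 0.65 and by 0.92, 1.41, and 0.93. Mertk, a phagocytic receptor, changed by 0.15, 0.68, and 0.14, called on day 7 alone and at −0.05 there after median centring. Cd47, a "do not eat me" signal on neurons, was the 1 member of the 8 that fell, by −0.18, −0.18, and −0.10. Over all tested genes 13.2%, 9.46%, and 8.11% were called lower on days 3, 7, and 28. With CR2-Crry on day 7, Tgfb1 at −0.51 and Tgfbr1 at −0.26 were called lower than with PBS, as were 7.16% of all tested genes. After median centring Tgfbr1 stood at −0.095 and was not called.

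Cx3cl1 moved opposite to most other tested chemokine ligands of the panel. Of 8 tested ligands, 7 rose on day 3 and 8 on days 7 and 28 in PBS mice, with medians of 2.11, 3.01, and 1.53 log2. Over all tested genes 51.6%, 57.3%, and 44.5% were called higher on those days. After median centring Xcl1 was not called on any day (−0.39, 0.01, and 0.54). Cxcl9 was then not called on days 3 and 7 (0.10 and 0.55), and the other ligands stayed called. Ccl2, a monocyte attractant, changed by 4.62, 3.54, and 2.22, Ccl3 by 3.01, 3.82, and 2.45, Ccl5, a T cell attractant, by 1.49, 3.83, and 2.03, and Cxcl10, an interferon-induced ligand, by 2.43, 4.29, and 1.97. The 1 other chemokine receptor tested, Ccr2, the Ccl2 receptor of monocytes, changed by 2.24, 2.35, and 1.08, and with CR2-Crry on day 7 by −0.92 relative to PBS, which was not called.

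The genes whose log2 values followed each member most closely over the 21 samples were read as a description, since samples of a group share their treatment and all genes of a sample share its scaling. For Cx3cl1 these were Pacsin1, a synaptic endocytosis protein (Pearson r = 0.954), Rab6b, a neuronal trafficking GTPase (0.946), Rbfox3, the neuronal nuclear protein NeuN (0.939), Bdnf, a neurotrophin (0.935), and Homer1 (0.934). The lowest were Lilrb4a, an inhibitory receptor of myeloid cells (−0.968), Dock2, an immune cell activator of Rac (−0.952), and C3ar1, the C3a receptor (−0.95). For Cx3cr1 the highest were C1qc (0.987), Irf8, a transcription factor of microglia and other myeloid cells (0.986), C1qb (0.985), Cd33, a sialic acid-binding inhibitory receptor (0.984), and Dock2 (0.984), where C1qc and C1qb encode chains of the complement protein C1q. The lowest for Cx3cr1 were Homer1 (−0.93), Bdnf (−0.926), and Cx3cl1 itself (−0.924).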

How the data were processed

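Expression was measured in 21 mouse brain samples (7 groups of 3), grouped by the labels. The deposited values were a linear signal, normalized beforehand by the authors, who used nSolver to apply a background threshold and to scale each sample to its housekeeping genes; replicates were not pooled. Within a sample, every value was a whole multiple of a fixed step (tolerance 0.0075; steps from 0.78618 to 1.25475, and 750585 to 1023041 steps in a sample's total). Counting errors take a step as 1 counted molecule and cover counting error only. The probe table gave 1 symbol for 703 of 757 probes and none for 54.

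Testing was limited to the 740 probes that exceeded 20 in 3 or more samples. Log2 values, with no pseudocount, were fitted in R 4.3.3 with limma 3.58.1, using a mean for each of the 7 groups, a spread shared by all samples, and moderated variances with a mean-variance trend. Benjamini-Hochberg adjustment ran over the 740 probes of a contrast, and calls needed an adjusted p below 0.05 but no minimum fold. The fit was tested on simulated data. Values were read, summarized, and plotted in Python 3.11.15 (pandas 2.3.3, numpy 2.4.6, matplotlib 3.10.9). Sequence windows and their coordinates were taken from RefSeq tables of GRCm38.p6.

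The members and the gene lists (written from textbook knowledge) were chosen with earlier results of these data known. Up to 4 called members were named per list, mostly those with the largest change. Among the activated microglia and macrophage markers, Tyrobp and Cst7 were not given beside Trem2 and Itgax. All members of the protease list were named, most tested members of the neuron-to-microglia list, and the 5 most and 3 least correlated genes for each member. The endothelial and some other members were left unnamed. Plcg2, Apoe, Cd3g, Klrd1, Cd3e, Msr1, and P2ry12 were named after their values were seen. Lists are described by counts and medians, with no set test. Astrocyte, oligodendrocyte, and proliferation lists are under other observations. Alternatives were leaving out each replicate, other scalings, filters, and pseudocounts, other variance settings, and the replicate number as a block. No 2 samples held identical values.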

Additional observations from a re-analysis of the deposited data

How the results depend on the processing

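All 12 comparisons with sham kept their direction and call under each of the 17 alternatives run for each. The call of lower Cx3cr1 with CR2-Crry on day 7 did not: the change was −0.34 without the trend (adjusted p = 0.0725), with only the groups compared (0.0878), and with an unequal-variance test (0.365), −0.17 after median centring (0.155), and −0.23 with samples scaled to equal totals (0.097), a scaling chosen after seeing the data. Leaving out 1 mouse gave −0.42 to −0.21, and the call was lost without PBS replicate 1 or 2 or any 1 CR2-Crry mouse. Replicate numbers did not pair the samples (mean correlation of deviations −0.02 for the same number and 0.01 for others), and the replicate block gave −0.34 (adjusted p = 0.0583) and changed no other call.

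For Cx3cl1 under CR2-Crry, median centring passed the threshold against PBS on day 7 (0.25, adjusted p = 0.0372), and the day 28 to day 7 difference passed with centring (0.36, 0.000739), equal totals (0.27, 0.00273), and adjusting only over p under 0.05 (0.13, 0.0319). The last also passed the Cx3cr1 effect on day 7 minus day 3 (−0.30, 0.0471). Uncalled differences near 0 changed sign: Cx3cl1 CR2-Crry against PBS on day 28 with sample weights (−0.018) and over left-out mice (−0.011 to 0.047), Cx3cl1 PBS day 7 against day 3 with centring (−0.066) and equal totals (−0.074), the Cx3cl1 effect on day 7 minus day 3 (0.19, 0.10, and −0.055 to 0.037 over left-out mice), and Cx3cr1 CR2-Crry against PBS over left-out mice on day 3 (−0.098 to 0.012) and day 28 (−0.14 to 0.025). The unequal-variance test lost Cx3cr1 PBS day 7 against 3 (0.41, adjusted p = 0.239), Cx3cl1 PBS day 28 against 7 (0.20, 0.0832), and Cx3cr1 day 28 against 7 with PBS (−0.76, 0.0651) and CR2-Crry (−0.50, 0.169). Causes were not tested. TMM scaling and a count model were not run, since both need raw counts and the table used here holds scaled values. Each group held 3 mice, and receptor intervals were wider than ligand intervals.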

Other observations

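Over all tested genes 51.6%, 57.3%, and 44.5% were called higher in PBS mice than in sham on days 3, 7, and 28. Of 9 tested astrocyte genes, 7 rose and 1 fell on day 3, 8 rose on day 7, and 6 rose on day 28. Vim, an intermediate filament protein of reactive astrocytes, changed by 3.85, 3.30, and 2.13 log2, and Serpina3n, a secreted protease inhibitor, by 4.02, 4.31, and 3.63. Of 10 tested oligodendrocyte genes, 6, 7, and 3 rose on days 3, 7, and 28. Enpp6, an enzyme of newly forming oligodendrocytes, changed by 0.54, 1.46, and 0.22 and was called on days 3 and 7, at −0.06 on day 3 after median centring. Under that scaling 4, 3, and 4 astrocyte genes were called higher and 3, 3, and 2 lower, and 1 oligodendrocyte gene was called higher on day 7 and 4, 6, and 5 lower on days 3, 7, and 28. Of the 740 tested genes, 196, 192, and 157 were then called higher and 387, 403, and 281 lower on those days.

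Of 11 tested proliferation genes, 9, 7, and 4 rose on days 3, 7, and 28, and 8 and 2 were called higher on days 3 and 7 after median centring. The shares of all tested genes called higher, before centring, were 51.6%, 57.3%, and 44.5%. After centring 196 and 192 of the 740 tested genes were called higher on days 3 and 7. Top2a, a topoisomerase of dividing cells, changed by 3.33, 2.07, and 0.31 and was not called on day 28. Rrm2, a subunit of the enzyme that makes DNA precursors, changed by 3.00, 1.43, and 0.07 and was not called on day 28 either. The proliferation genes named here were highest on day 3, when Cx3cr1 was 2.90-fold above sham, and Cx3cr1 was highest on day 7.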
